A study of Rattus norvegicus with 18 samples.

Results

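The mitochondrial respiratory chain genes were taken from the arrays by name: every gene probe whose gene name began with Nduf, Uqcr, Atp5, Sdha, Sdhb, Sdhc or Sdhd, or with Cox followed by a digit from 4 to 8. The rule matched 90 gene names, and 87 of them, of 23593 genes tested in all, had a brightest probe that was well above background on all 3 arrays of some group. Uqcrq, Cox7b2 and Cox8c were matched but did not pass this filter. By the prefix of the name, the 87 comprised 35 genes of complex I, 4 of complex II, 6 of complex III, 13 of complex IV and 15 of complex V. With them were 8 assembly factors and 6 other matches. Ndufa4, now placed in complex IV, is therefore counted under complex I throughout. The other matches carry the prefix without being subunits of a complex by their current names or are pseudogene or like-named entries (Cox4nb, now Emc8, Atp5s, now Dmac2l, Atp5sl, now Dmac2, Cox7a2l, Cox6c-ps1 and Atp5hl1). The like-named Ndufa7l and Ndufa10l1 were not set apart and are counted under complex I. Gene names are those of the array, and 18 have a newer symbol in RefSeq, among them Atp5a1 (Atp5f1a), Atp5b (Atp5f1b) and Atp5i (Atp5me).

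RNA came from knee synovial tissue of male Lewis rats that were 6 to 8 weeks old. Each of 6 groups had 3 one-colour arrays, 18 in all. The groups were normal control rats, model rats in which adjuvant induced arthritis (AIA), AIA rats of a cold model (AIA-cold) and of a hot model (AIA-hot), and rats of either model given WTD, a Chinese herbal formula (AIA-cold-WTD and AIA-hot-WTD). The study had 6 rats in each group, and further groups with other treatments were not analysed here. The making of the cold and hot models and the giving of WTD are not given in the sources used here. The titles of the arrays within a WTD group carry different letters that are not explained, so its 3 arrays may not have had the same treatment. In AIA-cold-WTD replicate 1 has G and the other two Z, and in AIA-hot-WTD replicates 1, 2 and 3 have D, G and Z. The titles call every array a biological replicate and number the arrays of a group differently, without saying whether a number is an animal. Throughout, a value is the log2 signal of a gene's probe relative to the 75th percentile of its array, a difference is between group means on that scale, and an error after ± is an SD over 3 arrays for a group and the model's standard error for a difference. Tissue markers differed widely between arrays of a group (the mean of 15 skeletal muscle markers was -1.63, -1.68 and 3.55 in AIA-hot-WTD), so not all were repeats of 1 RNA extract, and p-values measure the spread between these samples. A value is set only against values of the same probe.

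The respiratory chain carries electrons from NADH through complex I, and from succinate through complex II, to ubiquinone, then through complex III and cytochrome c to oxygen at complex IV. Complexes I, III and IV pump protons across the inner mitochondrial membrane, and complex V, the ATP synthase, lets them back to make ATP. Synovium is a thin lining of macrophage-like and fibroblast-like cells over a layer that holds vessels and fat. Skeletal muscle, which can lie next to it, is rich in mitochondria.

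Array quality bore on several results. Control replicate 1 was dim, with a 75th percentile signal of 72.7 against 217 to 354 on the other 17 arrays, and 44.05% of its gene spots were well above background against 57.11 to 76.98%. The synovial lining and fibroblast markers were all measured (9 of 9), with array means between 2.83 and 3.75. Tissue markers varied widely: the mean of 9 adipocyte markers ran from 1.93 on AIA-cold-WTD replicate 1 to 5.23 on AIA-hot replicate 3, the mean of 15 skeletal muscle markers was highest on AIA-hot-WTD replicate 3 (3.55) and next on control replicate 2 (1.32), and the mean of 7 cartilage markers was highest on control replicate 1 (4.71). The arrays lay on 5 slides scanned on 1 day, and most slides held arrays of 2 groups only. All AIA-cold arrays lay on a slide without control, AIA or AIA-hot arrays, so slide and group cannot be told apart in those comparisons.

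The respiratory chain genes varied together from array to array, in all 5 complexes. The correlation between a pair of the 87 genes over the 18 arrays had a median Pearson r of 0.769. Against the mean of all the others the median r was 0.904, and 63 genes exceeded 0.8; over all genes tested the median r with that same mean was -0.07 and 3.74% exceeded 0.8. The genes closest to the common pattern were Ndufb6 (r = 0.984) and Ndufv2 (r = 0.983) of complex I, Atp5a1 (r = 0.979), the alpha subunit of ATP synthase, and Uqcrb (r = 0.979) of complex III. These correlations describe arrays that share their scaling, and are given with no p.

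**Figure D1:**
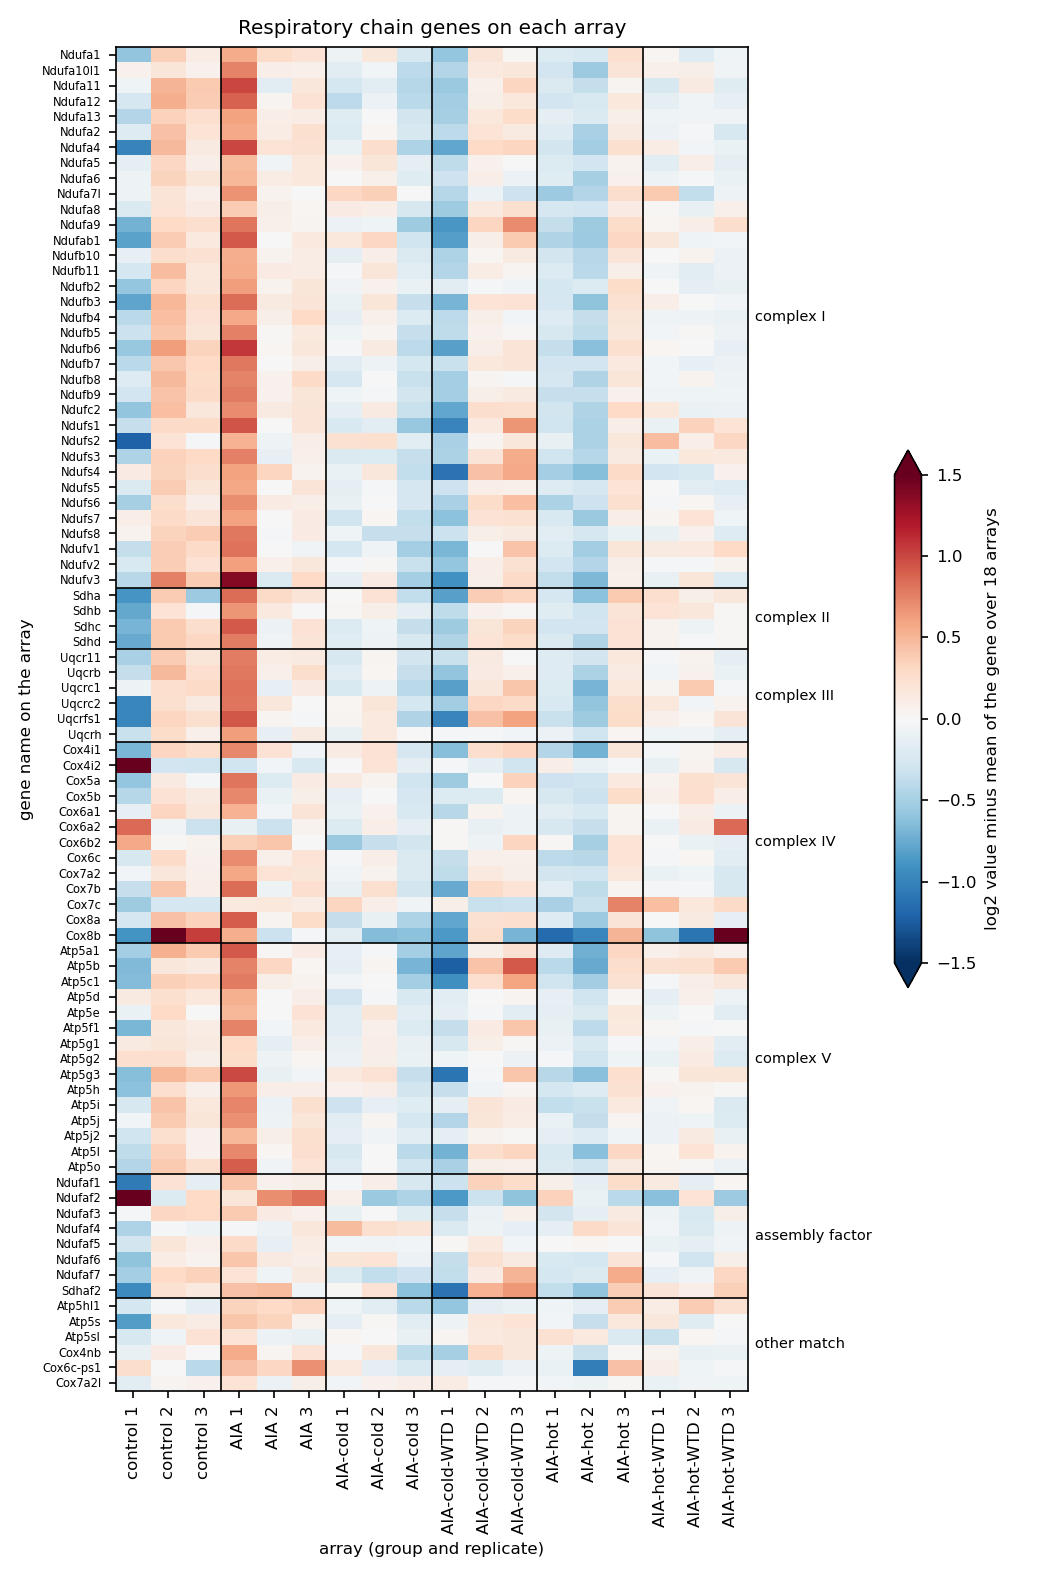
Heat map of the 87 genes (rows, grouped by complex or role) on the 18 arrays (columns, by group and replicate). Colour is the log2 value minus the mean of that gene over the 18 arrays, cut at 1.5 either way. AIA replicate 1 is high and AIA-cold-WTD replicate 1 and AIA-hot replicate 2 are low in nearly every row, while Cox4i2, Cox6a2, Cox8b and Ndufaf2 follow other patterns.

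The common level separated arrays within groups more than it separated groups. The median of the 87 genes was 3.92, 4.63 and 4.54 on the control arrays and 5.05, 4.41 and 4.33 on the AIA arrays. It was 4.27, 4.43 and 4.02 in AIA-cold and 3.90, 4.56 and 4.67 in AIA-cold-WTD. It was 4.02, 3.94 and 4.52 in AIA-hot and 4.41, 4.21 and 4.30 in AIA-hot-WTD. AIA replicate 1 was the highest array of all and AIA-cold-WTD replicate 1 the lowest, followed by control replicate 1 and AIA-hot replicate 2. On AIA replicate 1, 85 of the 87 genes lay above their own median over the 18 arrays, as did 83 on control replicate 2 and 81 on AIA-hot replicate 3. On AIA-cold replicate 3 only 4 did, on AIA-hot replicate 2 only 5, and on AIA-cold-WTD replicate 1 and AIA-hot replicate 1 only 7 each. The ranges of all 6 groups overlapped.

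The level of the respiratory chain genes followed that of the adipocyte markers. Pearson's r between a gene and the mean of the 9 measured adipocyte markers (among them Adipoq, the hormone adiponectin, and Plin1, a coat protein of fat droplets) had a median of 0.679 over the 87 genes, against -0.11 over the 23545 genes with no missing value, and was positive for 82. By a two-sided permutation test with 100000 resamples and Benjamini-Hochberg adjustment over those 23545 genes for this marker list, 64 of the 87 were positively correlated at an adjusted p under 0.05, and 12.2% of all genes were. By Spearman's rho 37 of the 87 passed, against 10.2% of all genes, and 36 passed by both measures. None of the 87 was negatively correlated past that threshold, against 10.9% of all genes. Without AIA-cold-WTD replicate 1 and control replicate 1, the arrays farthest from the median of the marker mean, the median r was 0.608, and after subtraction of each group's mean it was 0.806. So the relation was also present among arrays of the same group, but the value after subtraction includes those 2 arrays. The adipocyte mean was 1.93 on AIA-cold-WTD replicate 1, against 5.09 and 4.88 on the others of its group. It was 2.84 on control replicate 1, against 4.74 and 4.53. Subtraction of group means without these arrays was not run.

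Complex II had the highest median r with the adipocyte markers, 0.776, and all 4 of its subunits passed by Pearson's r. In complex I 32 of 35 passed with a median of 0.69, in complex III 5 of 6 with 0.722, in complex IV 8 of 13 with 0.628, and in complex V 8 of 15 with 0.671. Of the assembly factors 4 of 8 passed. The gene nearest to the adipocyte markers was Sdhaf2, the factor that attaches flavin to the catalytic subunit of complex II (r = 0.919, adjusted permutation p = 0.000406; rho = 0.775, adjusted permutation p = 0.00552). Its r was 0.838 without the 2 farthest arrays. Sdhaf2 read 0.44, 1.63 and 1.54 in control, 1.84, 1.87 and 1.34 in AIA, 1.41, 1.61 and 0.78 in AIA-cold, 0.29, 1.91 and 2.04 in AIA-cold-WTD, 1.03, 0.80 and 1.76 in AIA-hot, and 1.58, 1.50 and 1.75 in AIA-hot-WTD. It was lowest on AIA-cold-WTD replicate 1 and control replicate 1, the arrays with the lowest adipocyte means. Next came Uqcrfs1, the Rieske iron-sulphur protein of complex III (r = 0.876, adjusted permutation p = 0.000406; rho = 0.744, adjusted permutation p = 0.00766). The smallest unadjusted permutation p these resamples can give is 1e-05. In bulk tissue, fewer cells of a type and less RNA per cell cannot be told apart, and the part of adipocyte content in the level of these genes was not tested.

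**Figure D2:**
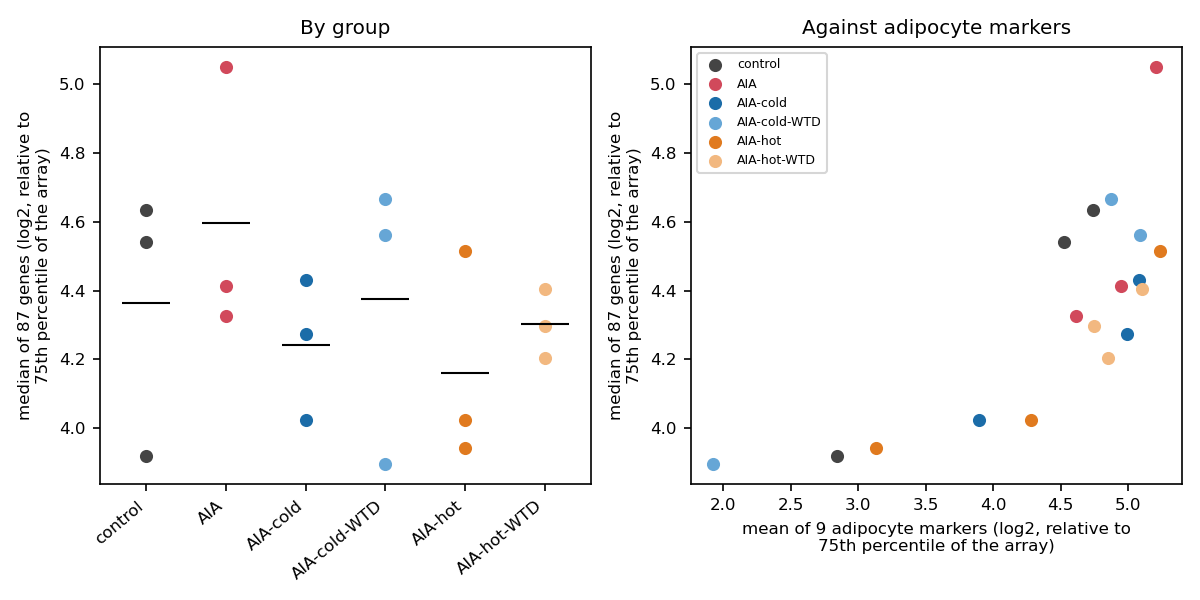
Left, the median log2 value of the 87 genes on each array, by group, with the group mean as a line. Right, the same median against the mean of 9 adipocyte markers on that array, both in log2 relative to the 75th percentile of the array. AIA-cold-WTD replicate 1, control replicate 1 and AIA-hot replicate 2 have the 3 lowest adipocyte means and the 3 lowest medians, and AIA replicate 1 has the highest median.

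Of the 87 genes 83 had a positive r with the skeletal muscle markers, but only 1 passed the adjusted threshold. Their median Spearman's rho was 0.465, against -0.03 over all genes. Without AIA-hot-WTD replicate 3 and control replicate 2 their median r was 0.438, against 0.01 over all genes. The median r with the mean of 15 muscle markers was 0.301, against -0.03 over all genes, and 1 of the 87 passed by Pearson's r: Cox8b, the heart and skeletal muscle isoform of a small complex IV subunit (r = 0.898, adjusted permutation p = 0.0283; rho = 0.715, adjusted permutation p = 0.388). Over all genes 0.106% passed by Pearson's r, 0.106% by Spearman's rho, where none of the 87 passed, and 0% were negatively correlated by Pearson's r, with none of the 87 among them. Cox8b read -2.41, 0.67 and -0.47 in control, -0.97, -1.83 and -1.53 in AIA, -1.67, -2.16 and -2.13 in AIA-cold, -2.37, -1.25 and -2.20 in AIA-cold-WTD, -2.67, -2.49 and -1.01 in AIA-hot, and -2.12, -2.60 and 2.00 in AIA-hot-WTD. It was highest on AIA-hot-WTD replicate 3 and control replicate 2, the arrays with the highest muscle means, and was well above background on 2 of the 3 control arrays. Without those 2 highest arrays its r was 0.65. Its ubiquitous counterpart Cox8a had an r of 0.31 with the muscle markers and 0.702 with the adipocyte markers.

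**Figure D3:**
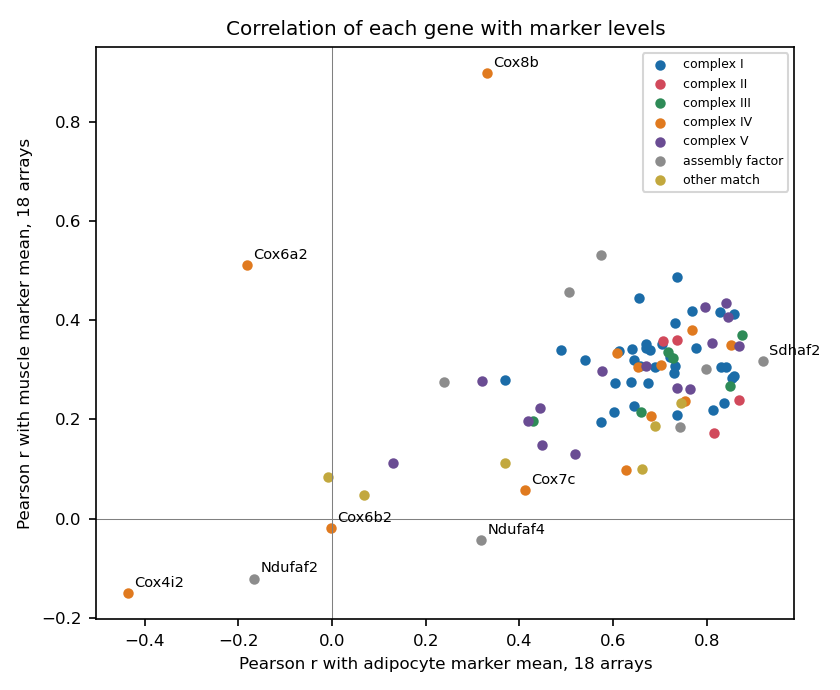
Each point is 1 of the 87 genes, coloured by complex or role. The horizontal axis is its Pearson r with the adipocyte marker mean and the vertical axis its Pearson r with the skeletal muscle marker mean, both over 18 arrays. Most genes lie to the right between 0.1 and 0.5 on the vertical axis, Cox8b stands highest, and Cox4i2 lies farthest left.

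The promoters of the subunit genes were examined because the genes moved together. Of the 73 kept genes of complexes I to V, 62 had an entry in the RefSeq promoter table for the rat build GRCr8, and the 250 bases before the start were searched on both strands for short motifs. Each of the 62 genes was counted by 1 entry, while the share of all promoters counts every full-length entry. The core of the site of NRF1, a regulator known for nuclear-encoded respiratory genes (GCATGCGC), was found in 8 of the 62 (12.9%), against 2.2% of all 33469 promoters. The core of the site of the ETS family, which includes the GA-binding protein (CCGGAAG), was found in 18 (29%), against 7.27%. The core of the YY1 site (AAGATGGCG) and the core of the site of oestrogen-related receptors (TCAAGGTCA) were each found in 1 (1.61%), against 0.693% and 0.388%, and the CCAAT box (CCAAT) in 19 (30.6%), against 34%. None of these motifs is contained in another. A match is a description of the letters and not of a bound site. The last 150 bases before the start are shown 5′ to 3′ with matches in capitals for Atp5i, which held both an NRF1 and an ETS core, for Uqcrc2, which held 2 ETS cores, and for Cox8a and Cox8b, the ubiquitous and the muscle isoform that moved apart. They lie at chr14:1464710-1464859 (plus strand), chr1:184599090-184599239 (plus), chr1:213833624-213833773 (minus) and chr1:205408274-205408423 (minus) in GRCr8.
Atp5i: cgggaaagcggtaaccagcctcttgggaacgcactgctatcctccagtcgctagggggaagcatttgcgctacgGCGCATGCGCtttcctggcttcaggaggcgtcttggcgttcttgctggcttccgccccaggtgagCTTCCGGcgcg
Uqcrc2: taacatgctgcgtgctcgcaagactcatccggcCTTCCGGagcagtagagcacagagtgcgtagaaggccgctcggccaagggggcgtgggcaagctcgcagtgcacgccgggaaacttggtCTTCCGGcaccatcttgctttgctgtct
Cox8a: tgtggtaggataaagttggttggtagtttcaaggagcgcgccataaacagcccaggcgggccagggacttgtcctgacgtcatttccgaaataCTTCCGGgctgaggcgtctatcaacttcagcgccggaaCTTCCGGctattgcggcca
Cox8b: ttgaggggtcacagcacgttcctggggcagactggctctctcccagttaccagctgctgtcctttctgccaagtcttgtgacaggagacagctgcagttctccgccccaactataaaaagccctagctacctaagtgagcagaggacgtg

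Genes of complexes I, II, III and V are shown as examples of the common course over the arrays. Ndufb6 and Atp5a1 were among the genes closest to that course. Uqcrc2, a core protein of complex III whose promoter is shown above, read 3.27, 4.49 and 4.38 in control, 5.05, 4.41 and 4.24 in AIA, 4.27, 4.43 and 3.99 in AIA-cold, 3.73, 4.56 and 4.53 in AIA-cold-WTD, 4.02, 3.65 and 4.51 in AIA-hot, and 4.41, 4.21 and 4.30 in AIA-hot-WTD. Ndufb6, an accessory subunit of complex I, read 4.29, 5.49 and 5.19 in control, 5.91, 4.88 and 5.03 in AIA, 4.84, 4.99 and 4.46 in AIA-cold, 4.04, 4.95 and 5.05 in AIA-cold-WTD, 4.50, 4.23 and 5.10 in AIA-hot, and 4.89, 4.85 and 4.74 in AIA-hot-WTD. In both genes AIA replicate 1 was highest, and AIA-hot replicate 2 and control replicate 1 were among the 3 lowest. Sdhd, a membrane anchor of complex II, read 4.37, 5.52 and 5.43 in control, 5.89, 5.08 and 5.32 in AIA, 4.94, 5.04 and 4.88 in AIA-cold, 4.67, 5.32 and 5.39 in AIA-cold-WTD, 4.91, 4.67 and 5.33 in AIA-hot, and 5.17, 5.11 and 5.14 in AIA-hot-WTD. Atp5a1, the alpha subunit of ATP synthase, read 2.79, 3.84 and 3.69 in control, 4.22, 3.32 and 3.42 in AIA, 3.18, 3.27 and 2.79 in AIA-cold, 2.51, 3.39 and 3.53 in AIA-cold-WTD, 3.10, 2.58 and 3.61 in AIA-hot, and 3.38, 3.44 and 3.37 in AIA-hot-WTD. The highest array was again AIA replicate 1, and in both genes every AIA-cold array lay below every AIA array while AIA-hot overlapped AIA.

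The AIA arrays were compared with the controls to ask whether arthritis went with a change in these genes. Of the 87 genes 81 had a higher mean in AIA and 6 a lower one, with a median difference of 0.22 against -0.03 over all genes. None passed limma's test at a Benjamini-Hochberg adjusted p under 0.05, and 0% of all genes did. At an unadjusted p under 0.05 there were 2, both higher, where 6.29% of all genes passed. Array weights in limma called none of the 87 either, with 0.0339% of all genes called. Sdha, the flavoprotein that oxidises succinate in complex II, had the largest difference. Sdha read 4.72, 5.99 and 5.06 in control, 6.44, 5.90 and 5.80 in AIA, 5.61, 5.82 and 5.24 in AIA-cold, 4.80, 5.98 and 5.93 in AIA-cold-WTD, 5.36, 4.99 and 6.00 in AIA-hot, and 5.86, 5.70 and 5.78 in AIA-hot-WTD. AIA overlapped control, and AIA exceeded control by 0.79 ± 0.36 (limma adjusted p = 0.756). Atp5hl1, an entry named for its likeness to the ATP synthase gene Atp5h, read -0.12, 0.10 and 0.00 in control and 0.47, 0.43 and 0.48 in AIA. These ranges did not overlap, and the difference of 0.47 ± 0.16 had an adjusted p of 0.756 by limma.

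All 35 complex I genes, all 4 of complex II and all 6 of complex III had higher means in AIA than in control, with medians of 0.19, 0.41 and 0.28. In complex IV it was 10 of 13 (median 0.26) and in complex V 13 of 15 (0.21). The 3 largest negative differences belonged to tissue isoforms of complex IV: Cox8b (-0.71 ± 0.98), Cox4i2 (-0.62 ± 0.40) and Cox6a2 (-0.29 ± 0.27). Without control replicate 1 Cox4i2 was at 0.10 and Cox6a2 at 0.05, and with array weights at 0.07 and 0.02, so their direction rested on that dim array. Without control replicate 2 Cox8b was at -0.00655, and without control replicate 1 at -1.55. The median rested on single arrays: it was 0.02 without control replicate 1 and 0.02 without AIA replicate 1, and 0.37 without control replicate 2 or AIA replicate 2. Within the slide that held all 3 controls and AIA replicate 1 it was 0.64. All 9 adipocyte markers were also higher in AIA than in control, with a median difference of 0.88, all 15 muscle markers lower (-1.52) and all 7 cartilage markers lower (-1.73), none past the threshold; their part in the result was not tested.

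In AIA-cold and AIA-hot most of these genes had slightly lower means than in control. In AIA-cold 66 of 87 were lower and 21 higher (median -0.18, against -0.04 over all genes), none passed limma's adjusted threshold where 0.534% of all genes did, and 5 passed unadjusted, where 18.7% of all genes did. The share of the 87 among unadjusted passes was thus below that of all genes. In AIA-hot 73 were lower and 14 higher (median -0.21, against -0.05), none passed where 0.0551% of all genes did, and 2 passed unadjusted against 12.1%. In complex I 30 of 35 were lower in AIA-cold (median -0.21) and 34 of 35 in AIA-hot (-0.29), and in complex V 13 of 15 in each (-0.19 and -0.21). The direction turned under other processing: normexp background correction gave a median of 0.08 in AIA-cold and 0.04 in AIA-hot, and slide as a fixed block gave 0.20 in AIA-hot. Complex II had 2 higher and 2 lower in both. Weighting arrays in limma by how closely each follows its group gave control replicate 1 a weight of 0.0921. In AIA-cold against control this called 21 of the 87, 20 lower and 1 higher. Of all genes 17.2% were called, 9.46% lower and 7.73% higher. In AIA-hot it called 7, all lower, with 5.29% of all genes called, 2.55% lower and 2.74% higher. The medians rested on single arrays: in AIA-cold the median was -0.37 without control replicate 1, -0.02 without control replicate 2, -0.11 without control replicate 3 and -0.10 without AIA-cold replicate 3. In AIA-hot it was -0.39 without control replicate 1, -0.08 without control replicate 2, -0.10 without AIA-hot replicate 2 and -0.39 without AIA-hot replicate 3. Against control, 8 of 9 adipocyte markers were higher in AIA-cold (median 0.72) and 7 of 9 in AIA-hot (0.06), and 14 of 15 muscle markers were lower in AIA-cold (-1.56) and 15 of 15 in AIA-hot (-1.42), none past the threshold; their part was not tested.

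Ndufs8, an iron-sulphur subunit of complex I, read 1.55, 1.83 and 1.88 in control, 2.29, 1.47 and 1.63 in AIA, 1.44, 1.15 and 1.15 in AIA-cold, 1.18, 1.59 and 1.64 in AIA-cold-WTD, 1.33, 1.25 and 1.41 in AIA-hot, and 1.39, 1.56 and 1.31 in AIA-hot-WTD. Both models lay below all controls. The difference from control was -0.51 ± 0.20 in AIA-cold (limma adjusted p = 0.182) and -0.43 ± 0.20 in AIA-hot (adjusted p = 0.400). A second Ndufs8 probe gave -0.58 and -0.44. Cox6b2, known as the testis isoform of a complex IV subunit, read -0.70, -1.26 and -1.23 in control and -1.84, -1.62 and -1.55 in AIA-cold. It differed by -0.61 ± 0.20 (limma adjusted p = 0.131). The group ranges did not overlap.

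Ndufaf4, a complex I assembly factor, went the other way and had the lowest adjusted p of any of the 87 in this comparison. It read 0.40, 0.85 and 0.79 in control, 0.86, 0.78 and 1.04 in AIA, 1.35, 1.11 and 1.06 in AIA-cold, 0.66, 0.79 and 0.74 in AIA-cold-WTD, 0.72, 1.15 and 1.06 in AIA-hot, and 0.83, 0.65 and 0.79 in AIA-hot-WTD. AIA-cold lay above both control and AIA-cold-WTD with no overlap. Both comparisons use the same AIA-cold arrays, so they are not independent. The share of all genes with no overlap was counted only for AIA-cold against AIA. The difference from control was 0.49 ± 0.15 (limma adjusted p = 0.111), and its other 2 probes, which were much dimmer, gave -0.08 and -0.03.

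The contrast with the largest common shift was that of both models against AIA. In AIA-cold 84 of 87 genes had a lower mean than in AIA and 3 a higher one (median -0.40, against -0.01 over all genes). In AIA-hot it was also 84 and 3 (median -0.46, against -0.04). No gene of the 87 passed limma's adjusted threshold in either, nor did any gene at all (0% and 0%); 13 of the 87 passed unadjusted in AIA-cold, where 9.06% of all genes did, and 14 in AIA-hot, where 5.12% did, and all of these were lower. For 38 of the 87 genes every AIA-cold array lay below every AIA array, which held for 13.5% of all genes. No slide held both AIA-cold and AIA arrays, so slide and model cannot be told apart in that contrast. Both contrasts use the same AIA arrays. All 35 genes of complex I, the 4 of complex II, the 6 of complex III and the 15 of complex V were lower in both models.

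Cox8a, the common isoform of its complex IV subunit, had the most negative difference of complex IV in AIA-cold against AIA. It read 6.87, 7.57 and 7.47 in control, 8.04, 7.17 and 7.40 in AIA, 6.77, 7.01 and 6.66 in AIA-cold, 6.35, 7.36 and 7.38 in AIA-cold-WTD, 6.93, 6.58 and 7.32 in AIA-hot, and 7.13, 7.26 and 7.00 in AIA-hot-WTD. All AIA-cold arrays were below all AIA arrays, while AIA-hot overlapped AIA. AIA-cold differed from AIA by -0.72 ± 0.30 (limma adjusted p = 0.481). Ndufb8, a complex I subunit of the membrane arm, read 7.88, 7.20 and 7.43 in AIA and 6.88, 7.13 and 6.81 in AIA-cold, a difference of -0.56 ± 0.23 (limma adjusted p = 0.469), and 6.89, 6.69 and 7.33 in AIA-hot, a difference of -0.53 ± 0.23 (adjusted p = 0.878). AIA-cold lay wholly below AIA for this gene, and AIA-hot overlapped it. The lowest adjusted p among the 87 was that of Cox6b2 in AIA-cold (-0.66 ± 0.20, limma adjusted p = 0.307).

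Among the catalytic subunits of ATP synthase, Atp5b, the beta subunit, read 2.62, 3.45 and 3.42 in control, 4.03, 3.60 and 3.31 in AIA, 3.14, 3.32 and 2.59 in AIA-cold, 2.05, 3.70 and 4.20 in AIA-cold-WTD, 2.88, 2.52 and 3.54 in AIA-hot, and 3.51, 3.52 and 3.67 in AIA-hot-WTD. The spread within AIA-cold-WTD (SD 1.12) exceeded every difference between group means. Atp5b in AIA-hot against AIA differed by -0.66 ± 0.44 (limma adjusted p = 0.878), with overlap.

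AIA replicate 1 weighed on both contrasts. Without it the median was -0.23 in AIA-cold and -0.25 in AIA-hot, and without AIA replicate 2 it was -0.53 and -0.58. On the slide that held 2 arrays each of AIA and AIA-hot, and not AIA replicate 1, the median of AIA-hot minus AIA was -0.42. With array weights 2 of the 87, Cox6b2 and Atp5hl1, were called lower in AIA-cold than in AIA, with 3.29% of all genes called. None of the 87 was called in AIA-hot against AIA, with 0% of all genes called. The adipocyte markers were lower in AIA-hot than in AIA in 9 of 9 (median -0.78), and in AIA-cold in 6 of 9 (median -0.05). Means of other markers also differed: cartilage markers were higher in 7 of 7 in AIA-cold (0.91) and 6 of 7 in AIA-hot (1.08), erythroid markers in 5 of 5 in each (1.32 and 0.79), T and NK cell markers in 5 of 6 and 6 of 6 (0.34 and 1.08), and endothelial markers were lower in 6 of 6 in each (-0.16 and -0.26). None passed, and their part was not tested.

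AIA-cold and AIA-hot did not separate. The median difference was 0.03, against 0.01 over all genes, with 57 higher and 30 lower in AIA-cold. None passed, against 0.00848% of all genes by limma's adjusted p, and none of the 87 passed unadjusted, against 5.5%. The largest difference was that of Ndufa7l (0.47 ± 0.24, limma adjusted p = 0.931), with a 95% interval from -0.06 to 0.99. Array weights called none of the 87, with 2.38% of all genes called. The median was -0.08 without AIA-hot replicate 2 and 0.20 without AIA-hot replicate 3, and leaving out replicate 2 of AIA-cold gave -0.06 and leaving out its replicate 3 gave 0.11, so its sign rested on single arrays; without AIA-hot replicate 1 it was 0.00136.

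**Figure D4:**
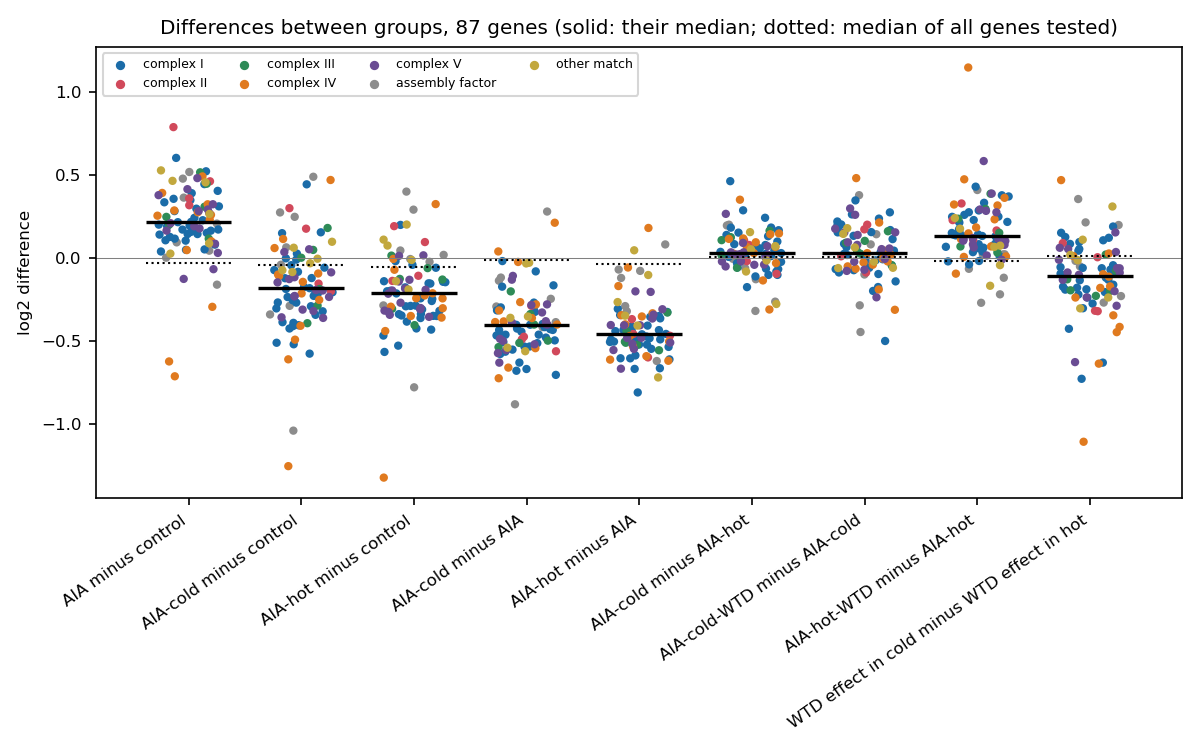
Log2 difference of each of the 87 genes (points, coloured by complex or role) in the 9 comparisons. A solid line is the median of the 87 and a dotted line that of all genes tested; the points lie mostly above 0 in AIA minus control (median 0.22) and mostly below 0 in AIA-cold and AIA-hot minus AIA (medians -0.40 and -0.46).

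WTD was compared with the untreated model in each arm. In the cold arm 52 of the 87 genes had a higher mean with WTD and 35 a lower one (median 0.03, against 0.01 over all genes). In the hot arm 76 were higher and 11 lower (median 0.13, against -0.01). None of the 87 passed limma's adjusted threshold in the cold arm, where 0.00848% of all genes did, or in the hot arm, where 0% did. At an unadjusted p under 0.05 there were 2 in the cold arm, against 6.09% of all genes, and none in the hot arm, against 2.28%. The test of the difference between the arms called none of the 87 and 0% of all genes, and none of the 87 passed it unadjusted, against 4.19%. Its median was -0.11. Array weights called none of the 87 in the hot arm, with 0.00424% of all genes called, or between the arms, with 0.852% called.

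The 2 genes in the cold arm were Ndufaf4, with a lower mean under WTD (-0.44 ± 0.15, limma adjusted p = 0.667), and Cox6b2, with a higher one (0.48 ± 0.20, adjusted p = 0.743). Cox6b2 read -1.84, -1.62 and -1.55 in AIA-cold and -1.26, -1.35 and -0.95 in AIA-cold-WTD, with no overlap. The same AIA-cold arrays gave the differences of both genes from control. With array weights both genes were called, with 9.34% of all genes called. These weights were 0.222 for AIA-cold-WTD replicate 1, against 3.13 and 1.43 for replicates 2 and 3, so the calls rest mostly on the latter. The hot arm's largest difference was that of Cox8b (1.15 ± 0.98, limma adjusted p = 0.999), and it came from AIA-hot-WTD replicate 3, the array with the highest muscle markers. AIA-hot-WTD was otherwise the most even group: the SD of the median of the 87 genes over its arrays was 0.10, against 0.21 to 0.42 in the other groups.

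Leaving out single arrays turned the sign of the WTD median in the cold arm, and changed its size in the hot arm. AIA-cold-WTD replicate 1, the lowest array of that group, is also its only array with the title letter G, so the array and the letter cannot be told apart. In the cold arm the median was 0.25 without it and -0.07 without AIA-cold-WTD replicate 3. It was -0.06 without AIA-cold-WTD replicate 2 or AIA-cold replicate 3, 0.13 when AIA-cold replicate 2 was left out and 0.05 when its replicate 1 was, and within the slide that held 3 AIA-cold arrays and AIA-cold-WTD replicate 1 it was -0.35. In the hot arm it was 0.02 without AIA-hot replicate 2, 0.28 without AIA-hot replicate 3, and -0.16 within the slide that held AIA-hot replicate 3 and all 3 WTD arrays. The median difference between the arms was 0.10 without AIA-cold-WTD replicate 1, 0.02 without AIA-hot replicate 2 and -0.01 without AIA-cold replicate 2. It was -0.21 without AIA-cold replicate 3 or AIA-cold-WTD replicate 2 or 3, and -0.27 without AIA-hot replicate 3. In the cold arm 8 of 9 adipocyte markers were lower with WTD (median -0.85) and in the hot arm 9 of 9 were higher (0.67). In the hot arm erythroid markers were also higher with WTD in 5 of 5 (2.17) and muscle markers in 14 of 15 (1.26), while T and NK cell markers were lower in 5 of 6 (-0.79), cartilage markers in 5 of 7 (-1.07) and lining and fibroblast markers in 8 of 9 (-0.33). In the cold arm endothelial markers were lower in 6 of 6 (-0.14) and macrophage markers in 5 of 6 (-0.48). None passed, and their part was not tested.

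Tissue isoforms of complex IV departed from the common pattern. Cox4i2, the isoform known from lung and from low oxygen, read 3.84, 1.68 and 1.67 in control and between 1.67 and 2.17 on every other array. Its high value on control replicate 1 stood alone. It had the lowest r with the adipocyte markers (-0.44, adjusted permutation p = 0.185; rho = -0.12), which was -0.08 without control replicate 1. Cox4i1, the common isoform, read 3.45, 4.46 and 4.40 in control, and was lowest on AIA-hot replicate 2 (3.43). The difference between the 2 isoforms, measured from its own median over the 18 arrays, was 2.71 on control replicate 1 and between -0.87 and 0.75 elsewhere.

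Cox6a2, the heart and skeletal muscle isoform of another complex IV subunit, read 1.09, 0.18 and -0.08 in control and 0.13, 0.36 and 1.08 in AIA-hot-WTD. It was highest on control replicate 1 and AIA-hot-WTD replicate 3, and between -0.12 and 0.36 on all others. Its r with the muscle markers was 0.511 (adjusted permutation p = 0.931; rho = 0.247) and 0.10 without AIA-hot-WTD replicate 3. The difference between Cox8b and Cox8a, again from its own median, was 3.96 on AIA-hot-WTD replicate 3, 2.07 on control replicate 2, 1.03 on control replicate 3 and between -0.90 and 0.63 on the rest. Cox6b1, Cox7a1 and Ndufa4l2 have no probe by that name, so 3 of the 6 isoform pairs were not compared.

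**Figure D5:**
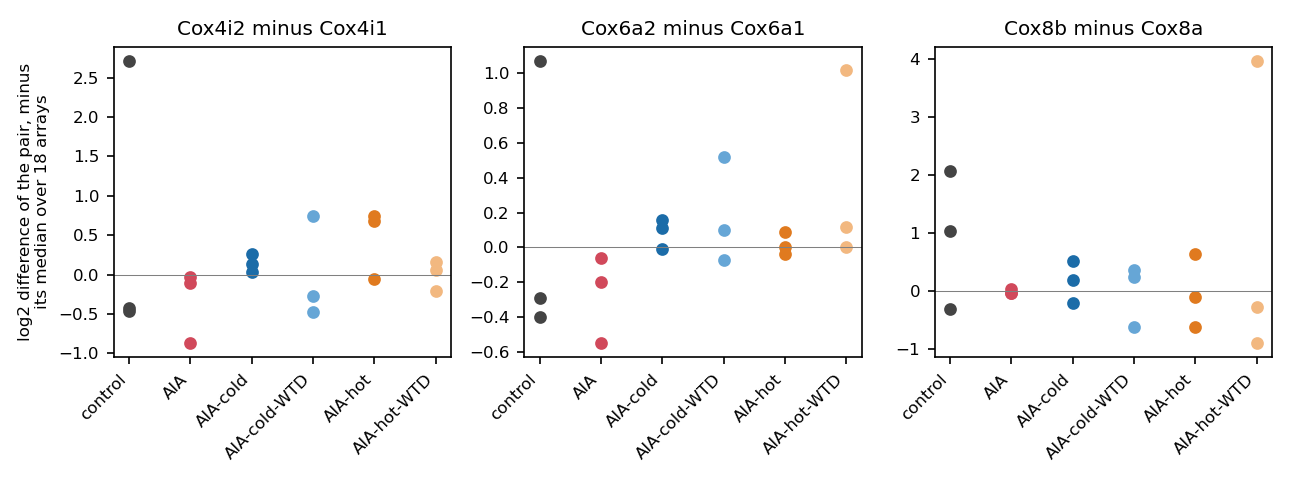
Log2 difference between the tissue isoform and the common isoform of 3 complex IV subunits on each array, minus the median of that difference over the 18 arrays, by group. Control replicate 1 stands highest for Cox4i2 (2.71) and Cox6a2 (1.07), and AIA-hot-WTD replicate 3 for Cox8b (3.96).

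Other departures were few. Besides Cox4i2 (r = -0.44) and Cox6a2 (-0.12), Ndufaf2, an assembly factor of complex I, had a negative r with the mean of the other genes (-0.07), and Ndufaf4 (0.07), Atp5sl (0.13), Cox7c (0.24) and Cox6b2 (0.31) followed it weakly. Ndufaf2 read -1.14, -3.40 and -2.90 in control and was highest on control replicate 1, the dim array. The lowest signal well above background was -1.86 on that array, against -3.90 and -3.72 on control replicates 2 and 3. Without control replicate 1 the r of Ndufaf2 with the adipocyte markers went from -0.17 to 0.25. Its r with the other genes was not computed without that array. Cox7c, a small complex IV subunit, read 1.46, 1.74 and 1.72 in control and 2.14, 2.15 and 2.11 in AIA, a difference of 0.49 with no overlap. Its second, dimmer probe gave 0.05. Second probes of similar brightness did not always give the same size. In AIA-hot against AIA the brightest Atp5g3 probe gave -0.55 and the next -0.53, but the Cox5b probes gave -0.33 and -0.58. In AIA against control the Sdhaf2 probes gave 0.48 and 0.85, and in AIA-cold against control 0.07 and 0.47.

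Other mitochondrial genes were given by lists of the same kind. Of 12 measured genes of the tricarboxylic acid cycle, 12 were higher in AIA than in control (median 0.32), 11 were lower in AIA-cold than in AIA (-0.40) and 12 were lower in AIA-hot than in AIA (-0.52), with none past the adjusted threshold. Cs, citrate synthase, differed by 0.59 in AIA against control, -0.58 in AIA-cold against AIA and -0.60 in AIA-hot against AIA. Of 10 genes of electron carriers and transfer, 9 were higher in AIA than in control (0.39), and 9 were lower in each model than in AIA (-0.35 in AIA-cold and -0.51 in AIA-hot). Of 16 measured assembly genes outside the naming rule, 13 were higher in AIA than in control (0.21) and 13 and 14 were lower in AIA-cold and AIA-hot than in AIA (-0.16 and -0.21). Of 13 genes of mitochondrial transport, 9 were higher in AIA than in control (0.15) and 8 and 9 lower in AIA-cold and AIA-hot than in AIA (-0.18 and -0.24).

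The genes of mitochondrial biogenesis did not share the direction in AIA-cold: 11 of 13 had higher means there than in AIA (median 0.14) and 10 of 13 than in control (0.24). Tfam, which packages mitochondrial DNA, differed from control by 0.52 in AIA-cold (limma adjusted p = 0.176). Ppargc1a, a coactivator of mitochondrial biogenesis on that list, was not well above background on all arrays of any group, nor was Ucp1, the uncoupling protein of brown fat, on the transport list. Of the 10 hypoxia genes 6 were lower in AIA-cold than in control (median -0.32) and 7 in AIA-hot (-0.47). Ucp2, an inner-membrane uncoupling protein, read -0.26, 0.44 and 0.11 in control and 1.13, 1.24 and 1.00 in AIA-cold, a difference of 1.03 ± 0.24 (limma adjusted p = 0.0641) with no overlap. Slc2a1, the glucose transporter GLUT-1, was the only gene of these lists that passed in any comparison. It was lower in AIA-cold than in control by 1.31 ± 0.21 on the log2 scale (limma adjusted p = 0.0235). It read 3.00, 2.68 and 2.78 in control and 1.36, 1.73 and 1.45 in AIA-cold, with no overlap. In that comparison 0.534% of all genes passed, and slide and group cannot be told apart.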

How the data were processed

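Total RNA was labelled with Cy3 and hybridised to Agilent rat arrays, 3 in each of 6 groups; groups came from the labels. The deposited scanner files give an intensity per spot. Per the file headers, background was subtracted and the signal detrended on each array, with no scaling between arrays; Feature Extraction was version 10.7 according to the submitters' processing notes. A deposited table of the authors' own log2 values, of unstated scale, was an alternative. From the processed signal of 43379 gene spots, log2 values less each array's 75th percentile over gene probes were taken, outlier spots left out (58 to 139 per array), spots of a probe averaged, and each gene given by its brightest probe, kept if well above background on all 3 arrays of a group. No spot was saturated. With 3 arrays a group, precision is limited.

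One limma 3.58.1 fit (R 4.3.3; lmFit and eBayes; 12 residual and 2.29 prior degrees of freedom) covered all 23593 genes and 9 contrasts; adjusted p-values are Benjamini-Hochberg over all genes of a contrast, called under 0.05. The fit was tested on simulated data. Marker correlations were adjusted over all genes, not over the members alone as first planned. Gene names were matched to RefSeq (GRCr8) by accession for 81, symbol for 7 and synonym for 1, and 1 was unmatched; promoter sequences are RefSeq's. Named genes were those past the threshold, the 3 most positive and 3 most negative differences of each contrast, fixed subunits of each complex and isoform pairs; others, such as Sdhaf2, Ndufs8 and Atp5hl1, were chosen after their values were seen. Members and lists were chosen with earlier results of these data known. Alternatives covered background correction, normalization, source of values, filters, probe choice, slide, samples fitted, array weights and leaving out each array.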

Additional observations from a re-analysis of the deposited data

How the results depend on the processing

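Without array weights, none of the 87 respiratory chain genes was called in any of the 9 comparisons under any alternative that could be fitted. Array weights called 21 in AIA-cold against control, 7 in AIA-hot against control, 2 in AIA-cold against AIA and 2 in AIA-cold-WTD against AIA-cold. In that order 17.2%, 5.29%, 3.29% and 9.34% of all genes were called. With slide as a fixed block the median difference was 0.638 in AIA against control, 0.201 in AIA-hot against control, -0.345 in AIA-cold-WTD against AIA-cold and -0.155 in AIA-hot-WTD against AIA-hot. The difference within the single shared slide was an alternative chosen after seeing the data. It gave 0.638 in AIA against control, -0.345 in the cold WTD arm and -0.155 in the hot WTD arm. With this layout of slides the block fit reduces to that difference, so these values repeat those above and add nothing to them. On 1 side each rests on a lone array: AIA replicate 1, AIA-cold-WTD replicate 1 and AIA-hot replicate 3. AIA-cold against control, AIA or AIA-hot has no value with slide as a fixed block, because no group links the slides of the cold arm to the others. Normexp background correction turned the medians against control to 0.08 in AIA-cold and 0.04 in AIA-hot, while the median over all genes was -0.21 and -0.19; the cause was not tested. The median r with muscle markers was 0.485 without AIA-hot-WTD replicate 3, also chosen after seeing the data, and 0.318 without control replicate 1; with adipocyte markers these were 0.69 and 0.666.

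Leaving out each array in turn, the median ranged from 0.0204 to 0.368 in AIA against control, -0.367 to -0.0154 in AIA-cold and -0.387 to -0.0795 in AIA-hot against control, -0.526 to -0.234 in AIA-cold and -0.6 to -0.251 in AIA-hot against AIA, -0.0811 to 0.201 in AIA-cold against AIA-hot, -0.0716 to 0.245 and 0.024 to 0.282 with WTD in the cold and hot arms, and -0.269 to 0.104 between the arms; calls stayed at 0. Of 249 differences of named genes, 10 passed in some alternative and 140 changed sign in some alternative, none of them a called value. No paired analysis was possible because the labels give every array the same replicate number and link no arrays of different groups. The dim signal of control replicate 1 limits every comparison with control.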
